A study of Homo sapiens with 18 samples.

Results

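The genes described here are 5 pairs of human ribosomal protein paralogs, that is, pairs of separate genes that encode close versions of the same ribosomal protein. They are RPL22 with RPL22L1, RPL39 with RPL39L, RPS27 with RPS27L, RPL36A with RPL36AL, and RPL26 with RPL26L1. In each pair the gene named first is called the canonical member below, and the other its paralog. The members were taken by symbol from the deposited gene table, and all 10 were found among its 17017 genes. All 10 also passed the filter on low counts in the fits of all 3 groups at full depth, while RPL39L footprints did not pass it after thinning or with SH2 and SH3 alone in the fit.

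The cells were MDA-MB-231, an established triple-negative breast carcinoma line. They had been transduced with lentiviral vectors that express a short hairpin RNA against fibrillarin, or a scramble sequence, and had been kept in puromycin (1 µg/ml, 96 h). Fibrillarin, the product of FBL, is the nucleolar methyltransferase that places 2'-O-methyl groups on ribosomal RNA with box C/D guide RNAs. The treatments are labelled SC, read here as the scramble control, SH2 and SH3. Which of SH2 and SH3 is the hairpin that the protocol numbers KD1, and which is KD2, is not given. All groups, SC included, had received a vector and the drug selection, and all lysates were made after cycloheximide (100 µg/ml, 5 min), which stalls elongating ribosomes. Each treatment had 3 libraries of input cytoplasmic RNA (IN, called RNA below) and 3 of ribosome-protected fragments from monosomes after RNase I digestion (RPF, called footprints below), which makes 18 libraries. The labels do not say whether replicates came from separate cultures, so the p-values measure only the spread between these samples, which may be technical. The SC libraries serve as controls for both hairpins, whose changes therefore share them.

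Ribosomal proteins are made in matched amounts, and most are encoded by a single functional gene that every cell uses. A few have a further functional gene, whose protein can take the same place in the ribosome and which is often more restricted by tissue. RPL22 protein is known to bind the RPL22L1 transcript and to limit its expression. RPL39 and RPL39L lie in the exit tunnel of the large subunit, and RPL39L is known from testis and from some tumours. RPL36A and RPL36AL encode nearly identical proteins from an X-linked and an autosomal gene. Most ribosomal protein mRNAs start with a C followed by a run of pyrimidines, the 5' terminal oligopyrimidine (TOP) tract, through which LARP1 and mTOR control their translation.

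The RNA libraries held 23469830 to 27629488 counts and the footprint libraries 1662705 to 6098648, with the deepest footprint library in SC and the shallowest in SH3. The targeted gene FBL stood at 349 to 421 CPM (counts relative to the TMM-scaled library total) in SC RNA, at 1.26 to 11.2 in SH2 and at 2.95 to 4.15 in SH3. The SH2 library of replicate 3 was the highest of the hairpin libraries in both library kinds. VIM, CD44, MSN and AXL, which mark this mesenchymal line, were all present. Markers of luminal, epithelial, basal and blood cells were low, with at most 1 count of ESR1, 2 of PGR, 11 of CDH1, 49 of KRT14 and 36 of PTPRC in any RNA library.

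The annotated start sites show where the members of a pair differ before translation begins. RefSeq start sites on GRCh38.p14 were found for 9 of the 10 genes. A window of 15 bases before and 15 bases from the start is printed 5' to 3' on the transcribed strand for the pairs in which both members have an entry. Capitals mark the unbroken run of C and T from the start base.
RPL22 (chr1:6199581-6199610, minus): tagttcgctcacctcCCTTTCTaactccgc
RPL22L1 (chr3:170870181-170870210, minus): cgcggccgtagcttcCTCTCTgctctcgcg
RPS27 (chr1:153990747-153990776, plus): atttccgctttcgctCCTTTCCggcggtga
RPS27L (chr15:63157463-63157492, minus): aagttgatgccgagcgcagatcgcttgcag
RPL36A (chrX:101390996-101391025, plus): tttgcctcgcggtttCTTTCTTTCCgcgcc
RPL36AL (chr14:49620612-49620641, minus): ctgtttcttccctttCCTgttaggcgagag
RPL26 (chr17:8383179-8383208, minus): aagcagcgtgtagttCTCTTCCCTTTTgcg
RPL26L1 (chr5:172958714-172958743, plus): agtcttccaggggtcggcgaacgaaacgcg
The pattern searched was a C at the start base that opens a run of at least 5 C or T, on the transcribed strand alone and at the annotated start alone. It was present in RPL22, RPL22L1, RPS27, RPL36A and RPL26 above, and in RPL39, whose run of 19 bases is the longest among the members. RPL36AL has a run of 3 from its annotated start, with 12 further pyrimidines just before it. RPS27L and RPL26L1 have no pyrimidine at the start, and neither does a further annotated start of RPL26L1. The same pattern was held by 4.07% of all 35116 promoter entries, and by 42 of the 58 other cytosolic ribosomal protein genes with an entry. These letters describe the annotated start and not the start used in these cells, which was not measured.

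In RNA, nearly all members were lower under both hairpins. "Called" means an edgeR adjusted p under 0.05. In SH2, 9 of the 10 members were called, all lower, where 61.4% of the 12710 genes tested were called (31.1% higher, 30.4% lower). In SH3, 8 of 10 were called, all lower, where 53% of genes were called (27.8% higher, 25.2% lower). The members not called were RPL26L1 under both hairpins and RPL22L1 under SH3. SC had the highest mean, SH3 the next and SH2 the lowest in 9 of the 10 members, RPL22L1 being the exception, and with CPM scaled by library totals alone RPL26L1 was one too. Between the hairpins 4 members were called, all lower in SH2 than in SH3, where 39.3% of genes were called (18.9% higher, 20.4% lower).

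In footprints, fewer members were called against SC than in RNA. In SH2, 5 of 10 were called lower and none higher, where 44.2% of 10345 genes were called (21% higher, 23.2% lower). In SH3, 5 of 10 were called lower, where 35.9% of genes were called (16.9% higher, 19% lower). The called members were the same under both hairpins: RPL22L1, RPL39, RPL39L, RPL36A and RPL36AL. RPS27, RPS27L, RPL26 and RPL22 had no called footprint change against SC, and neither had RPL26L1. RPL22 in SH2 (adjusted p = 0.0553 by edgeR) and RPL26L1 under both hairpins (adjusted p = 0.0625 and 0.0564 by edgeR) fell just short of the threshold. These fits did not pair libraries by replicate number. With the replicate number as a block, 7 members were called lower in SH2, RPL22 and RPL26L1 being added, where 5018 of 10345 genes were called. Leaving out a library in turn gave 3 to 7 members called in SH2 and 2 to 6 in SH3, so the calls do not mark 2 separate classes. Between the hairpins 2 were called, RPL22 lower and RPS27L higher in SH2, where 23.8% of genes were called (12.1% higher, 11.6% lower). Translational efficiency, the footprint change minus the RNA change on the log2 scale, was called higher for RPS27, RPL26 and RPS27L in SH2, where 3.9% of 12531 genes were called (1.44% higher, 2.46% lower). In SH3 it was called for RPS27 alone, where 0.686% of genes were called (0.375% higher, 0.311% lower). No member's translational efficiency was called between the hairpins by edgeR (0.016% of genes were called), although 4 members had an unadjusted p under 0.05 and DESeq2 called 2.

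**Figure D1:**
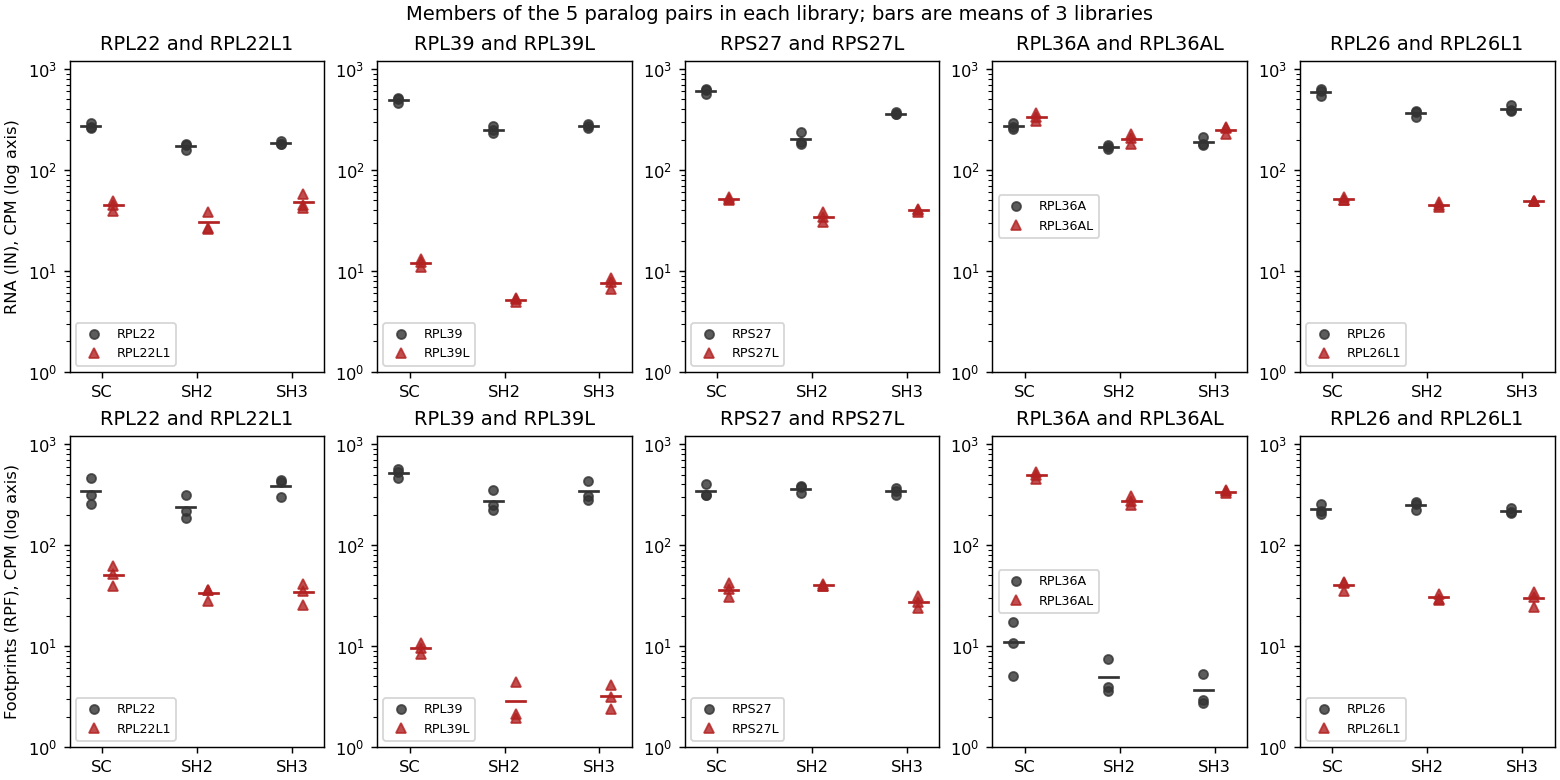
CPM of the 10 members in each library on a log axis, RNA in the upper row and footprints in the lower, with a panel for each pair. Points are single libraries and bars are means of 3 libraries, with circles for the canonical member and triangles for the paralog. RNA of most members is lower under SH2 and SH3 than in SC, and RPL36A is at 162 to 289.6 CPM in RNA and at 2.74 to 17.2 CPM in footprints.

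Within each pair, the paralog was then set against its canonical partner in the same libraries. The value tested was the log2 ratio of the paralog's count to the partner's count, in which the scaling of a library cancels out. It was fitted with limma beside the ratio of every other tested gene to that same partner, and p-values were adjusted over all these genes. Most genes moved relative to these falling mRNAs, so the share of all genes called is high in RNA, and it is given with each pair. Counts were not divided by transcript length, so a paralog's share of the counts of its pair can be followed across groups but is not its share of the molecules. Of the 5 pairs, the RNA ratio was called in 2 under SH2, in 3 under SH3 and in 2 between the hairpins. The ratio of footprints was called in 1 pair under SH2 and in none under SH3 (1 pair at an unadjusted p under 0.05). The ratio of translational efficiency was called in 2 pairs under SH2, in 3 under SH3 and in none between the hairpins (1 pair at an unadjusted p under 0.05). A call depends on how many genes moved against that partner, so these counts cannot be compared between pairs or comparisons. In translational efficiency, RPS27L in SH2 was called at an unadjusted limma p of 0.00196. RPL22L1 between the hairpins was not called at an unadjusted limma p of 0.00143.

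**Figure D2:**
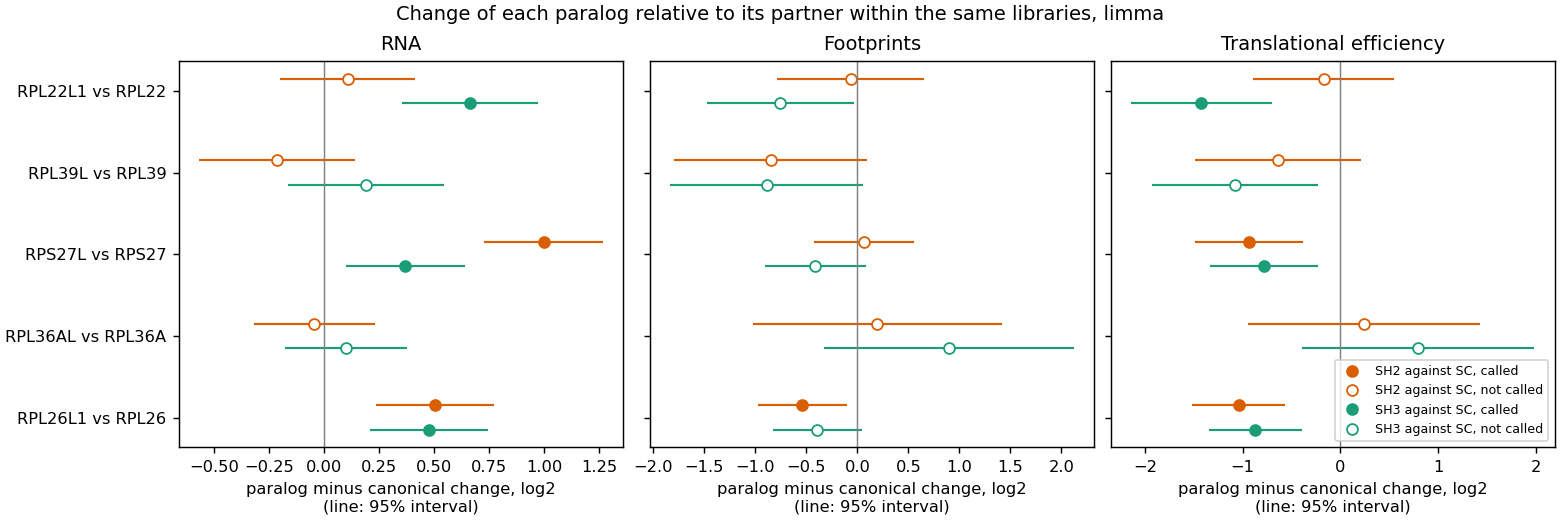
Change of each paralog minus that of its canonical partner, on the log2 scale, for RNA, footprints and translational efficiency. Dots are limma estimates from 3 libraries a group, lines are 95% confidence intervals, and filled dots are called. RPS27L and RPL26L1 lie to the right of 0 in RNA and to the left of 0 in translational efficiency under both hairpins.

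RPS27 had the largest RNA change of the 10 members in SH2, while in SH3 that of RPL39 was larger, and it had no called footprint change. RPS27 encodes a zinc-finger protein of the small subunit. Its RNA was at 629, 571 and 625 CPM in SC, at 191, 236 and 179.6 in SH2 and at 358, 371 and 358 in SH3, given here and below in the order of replicates 1, 2 and 3. The 3 groups did not overlap, and SH2 kept 33.3% and SH3 59.6% of the SC mean. The log2 change was -1.59 in SH2 (SE 0.11, adjusted p = 6.58e-08 by edgeR) and -0.75 in SH3 (SE 0.11, adjusted p = 5.89e-05 by edgeR), and the hairpins differed by -0.84 (SE 0.11, adjusted p = 4.17e-05 by edgeR). Footprints of RPS27 were at 403, 316 and 311 CPM in SC, at 389, 328 and 373 in SH2 and at 317, 368 and 346 in SH3. These groups overlapped, and the changes were 0.08 (SE 0.14, adjusted p = 0.671 by edgeR) and 0.00 (SE 0.14, adjusted p = 0.996 by edgeR). Its translational efficiency rose by 1.65 on the log2 scale in SH2 (SE 0.17, adjusted p = 4.90e-05 by edgeR) and by 0.76 in SH3 (SE 0.17, adjusted p = 0.0445 by edgeR). The SH3 value was no longer called without any 1 of SC replicates 2 and 3 or SH3 replicates 1 to 3, with adjusted p from 0.0788 to 0.325. The same held with SC and SH3 alone in the fit (adjusted p = 0.0646 by edgeR). It also held with a block that took same-numbered RNA and footprint libraries as 1 lysate (adjusted p = 0.118 by edgeR). The labels do not give that pairing. Such libraries deviated in opposite directions for SC replicates 1 and 2 (correlations -0.490 and -0.460), and together for SC replicate 3 (0.264) and in SH3.

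RPS27L also fell in RNA, by less than RPS27. Its RNA was at 51.1, 50.8 and 53.5 CPM in SC, at 34.2, 38.3 and 30.5 in SH2 and at 38.4, 40.7 and 40.6 in SH3. Both hairpin groups lay below SC, with log2 changes of -0.59 (SE 0.10, adjusted p = 0.000173 by edgeR) and -0.38 (SE 0.10, adjusted p = 0.00612 by edgeR). Footprints of RPS27L were at 30.7, 41.7 and 36.4 CPM in SC, at 38.9, 39.6 and 41.4 in SH2 and at 31.0, 23.6 and 27.0 in SH3. SH2 and SH3 did not overlap, and each overlapped SC. The hairpins differed by 0.57 in footprints (SE 0.18, adjusted p = 0.0306 by edgeR), a call that was lost in 5 of 6 fits that each left out a library (adjusted p up to 0.144). Its translational efficiency rose by 0.75 in SH2 (SE 0.17, adjusted p = 0.0197 by edgeR) and had a value of -0.02 in SH3 (SE 0.18, adjusted p = 1.00). The SH2 call was lost without SC replicate 1 or 3 or SH2 replicate 1 or 3, with adjusted p from 0.0549 to 0.118, and with all footprint libraries thinned to the smallest total (0.47, adjusted p = 0.217 by edgeR). It was also lost with SC and SH2 alone in the fit (adjusted p = 0.0570 by edgeR). The block that took same-numbered RNA and footprint libraries as 1 lysate lost it as well (adjusted p = 0.0763 by edgeR), a pairing that the labels do not give.

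Relative to RPS27, RPS27L therefore took a larger part of the RNA counts of the pair under both hairpins. Its share was 7.51%, 8.17% and 7.89% in SC, 15.2%, 13.9% and 14.5% in SH2, and 9.69%, 9.87% and 10.2% in SH3, with no overlap between the 3 groups. The log2 ratio changed by 1.00 in SH2 (95% interval 0.73 to 1.27, limma adjusted p = 4.72e-07) and by 0.37 in SH3 (0.10 to 0.64, limma adjusted p = 0.0139). It differed between the hairpins by 0.63 (0.36 to 0.90, limma adjusted p = 0.000214). Of all genes set against RPS27, 92.7%, 77.6% and 83.5% were called in these comparisons, and the median gene moved by 1.61 in SH2 and 0.78 in SH3 relative to RPS27, more than RPS27L did. The SH3 ratio lost its call without SC replicate 1 (0.33, adjusted p = 0.0541) or SH3 replicate 3 (0.35, adjusted p = 0.0660). In footprints the share was 7.07%, 11.7% and 10.5% in SC, 9.09%, 10.8% and 10.0% in SH2 and 8.92%, 6.03% and 7.24% in SH3, so SC overlapped each hairpin group while SH2 lay above SH3. The ratio of footprints changed by 0.06 in SH2 (-0.43 to 0.56) and by -0.41 in SH3 (-0.91 to 0.08), neither called, where 34.5% and 26.7% of genes were. Relative translational efficiency of RPS27L fell by 0.93 in SH2 (95% interval -1.48 to -0.38, limma adjusted p = 0.00263, 88.7% of genes called) and by 0.78 in SH3 (-1.34 to -0.23, limma adjusted p = 0.0207, 50.5% of genes called). The median gene moved by -1.68 in SH2 and -0.79 in SH3 relative to RPS27, so RPS27L fell no more than the median gene. The SH3 value of RPS27L depended on which member served as the reference, since with RPS27L as reference its adjusted p was 0.380. It was also lost in 4 of 6 fits that left out the RNA and footprint libraries of 1 replicate number in a treatment, with adjusted p from 0.0700 to 0.0999.

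RPL26 and RPL26L1 encode versions of a large-subunit protein near the exit tunnel. RPL26 RNA was at 629.8, 543 and 607 CPM in SC, at 373, 386 and 335 in SH2 and at 392, 439 and 386 in SH3. Both hairpin groups lay below SC, with log2 changes of -0.70 (SE 0.10, adjusted p = 3.24e-05 by edgeR) and -0.55 (SE 0.10, adjusted p = 0.000364 by edgeR). RPL26L1 RNA was at 54.0, 50.5 and 50.7 CPM in SC, at 42.7, 47.9 and 44.8 in SH2 and at 49.2, 49.3 and 49.1 in SH3. These values also lay below the SC values, but the changes of -0.20 (SE 0.09, adjusted p = 0.0684 by edgeR) and -0.07 (SE 0.09, adjusted p = 0.515 by edgeR) were not called. With DESeq2's size factors in edgeR the SH2 change was -0.21 and was called (adjusted p = 0.0490). When CPM were scaled by library totals alone, the mean in SH3 (50.1 CPM) was above that in SC (49.6 CPM), and SH2 replicate 2 (48.8 CPM) overlapped SC, so the direction in SH3 depends on the scaling. The paralog's share of the RNA counts was 7.89%, 8.51% and 7.71% in SC, 10.3%, 11.0% and 11.8% in SH2 and 11.1%, 10.1% and 11.3% in SH3. Both hairpin groups lay above SC and overlapped each other. The ratio rose by 0.50 in SH2 (95% interval 0.24 to 0.77, limma adjusted p = 0.00145, 74.8% of genes called) and by 0.48 in SH3 (0.21 to 0.74, limma adjusted p = 0.00268, 70.4% called). The median gene moved by 0.71 in SH2 and 0.58 in SH3 relative to RPL26, more than RPL26L1 did. The difference between the hairpins was 0.03 (-0.24 to 0.30), not called, where 35.2% of genes were.

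In footprints the estimated ratio of the same pair had the opposite sign under both hairpins, but it was called in SH2 alone and only narrowly. RPL26 footprints were at 257, 201 and 219.6 CPM in SC, at 268, 222 and 258 in SH2 and at 213, 235 and 209 in SH3, and these groups overlapped. The changes were 0.14 (SE 0.14, adjusted p = 0.430 by edgeR) and -0.05 (SE 0.14, adjusted p = 0.818 by edgeR). RPL26L1 footprints were at 43.2, 35.0 and 42.1 CPM in SC, at 33.0, 29.4 and 28.8 in SH2 and at 34.5, 24.3 and 30.5 in SH3, all hairpin values being below those of SC. Their changes were -0.41 (SE 0.17, adjusted p = 0.0625 by edgeR) and -0.46 (SE 0.18, adjusted p = 0.0564 by edgeR). With the replicate number as a block, which pairs SH2 with SC, the SH2 change was -0.39 and was called (adjusted p = 0.0446 by edgeR). RPL26L1 made up 14.4%, 14.8% and 16.1% of the pair's footprint counts in SC, 10.9%, 11.7% and 10.0% in SH2 and 13.9%, 9.37% and 12.7% in SH3. The ratio changed by -0.54 in SH2 (95% interval -0.97 to -0.10, 36.5% of genes called), with a limma adjusted p of 0.04998 that passed 0.05 in none of the 6 fits that left out a library. It changed by -0.39 in SH3 (-0.83 to 0.04), which was not called (28.5% of genes were).

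The translational efficiency of RPL26 rose by 0.83 in SH2 (SE 0.16, adjusted p = 0.00723 by edgeR) and had a value of 0.51 in SH3 (SE 0.16, adjusted p = 0.157 by edgeR). The SH2 call was lost without SC replicate 3 (adjusted p = 0.0525) or SH2 replicate 3 (adjusted p = 0.0632). For RPL26L1 the values were -0.24 (SE 0.17, adjusted p = 0.508 by edgeR) and -0.38 (SE 0.18, adjusted p = 0.367 by edgeR). Relative to RPL26, the translational efficiency of RPL26L1 fell by 1.04 in SH2 (95% interval -1.52 to -0.57, limma adjusted p = 0.00109, 55.3% of genes called). It fell by 0.87 in SH3 (-1.34 to -0.40, limma adjusted p = 0.0159, 20.4% called). The median gene moved by -0.84 in SH2 and -0.54 in SH3 relative to RPL26, less than RPL26L1 did. The SH3 value of RPL26L1 was not called without SC replicate 3 or SH3 replicate 2 or 3 (adjusted p 0.0513 to 0.102).

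RPL22 and its paralog RPL22L1 are RNA-binding proteins at the surface of the large subunit. Between the hairpins, RPL22L1 differed in RNA and RPL22 in footprints. RPL22 RNA (-0.11, adjusted p = 0.351 by edgeR) and RPL22L1 footprints (-0.03, adjusted p = 0.944 by edgeR) were not called between SH2 and SH3. RPL22 RNA was at 268, 260.2 and 296 CPM in SC, at 176, 182 and 157 in SH2 and at 181, 194 and 182 in SH3. It fell under both hairpins, by 0.68 (SE 0.09, adjusted p = 2.57e-05 by edgeR) and by 0.57 on the log2 scale (SE 0.09, adjusted p = 0.000183 by edgeR). RPL22L1 RNA was at 39.6, 45.4 and 49.3 CPM in SC, at 26.2, 38.5 and 26.7 in SH2 and at 41.6, 58.2 and 45.1 in SH3. SH2 lay below SC, while SH3 overlapped SC. RPL22L1 changed by -0.56 in SH2 (SE 0.16, adjusted p = 0.00811 by edgeR) and by 0.11 in SH3 (SE 0.16, adjusted p = 0.588 by edgeR), and the hairpins differed by -0.66 (SE 0.16, adjusted p = 0.00498 by edgeR). The paralog's share of RNA counts was 12.9%, 14.9% and 14.3% in SC, 13.0%, 17.5% and 14.5% in SH2 and 18.7%, 23.0% and 19.9% in SH3, so SH3 lay above both other groups. The ratio rose by 0.66 in SH3 (95% interval 0.36 to 0.97, limma adjusted p = 0.000584, 72.4% of genes called). The median gene moved by 0.60 relative to RPL22 in SH3, close to the value of RPL22L1. In SH2 the ratio changed by 0.11 (-0.20 to 0.41), not called (75.1% of genes were), and the hairpins differed by -0.56 (-0.87 to -0.25, limma adjusted p = 0.00686, 35.3% called).

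RPL22 footprints were at 465, 257 and 314 CPM in SC, at 310.3, 216 and 186 in SH2 and at 417, 442 and 299 in SH3. The SC libraries spread widely, and both hairpin groups overlapped SC. The change was -0.55 in SH2 (SE 0.22, adjusted p = 0.0553 by edgeR) and 0.16 in SH3 (SE 0.22, adjusted p = 0.616 by edgeR), and SH2 was below SH3 by 0.70 (SE 0.22, adjusted p = 0.0313 by edgeR). With the replicate number as a block the SH2 change was -0.55 and was called (adjusted p = 0.00931 by edgeR). It was also called without the filter (adjusted p = 0.00308), with thinned footprints (-0.59, adjusted p = 0.0304), without SC replicate 2 (-0.71, adjusted p = 0.0103) and without SH2 replicate 1 (-0.77, adjusted p = 0.0178), while without SC replicate 1 it was -0.27. The difference between the hairpins lost its call in 4 of 6 fits that left out a library (adjusted p up to 0.140). RPL22L1 footprints were at 61.4, 51.8 and 39.2 CPM in SC, at 35.5, 28.0 and 36.3 in SH2 and at 41.6, 35.3 and 25.6 in SH3. They fell by 0.62 in SH2 (SE 0.21, adjusted p = 0.0229 by edgeR) and by 0.59 in SH3 (SE 0.21, adjusted p = 0.0383 by edgeR) on the log2 scale. The SH2 call was lost without SC replicate 1 or SH2 replicate 2 (adjusted p up to 0.112), and the SH3 call without SC replicate 1 or 2 or SH3 replicate 2 or 3 (adjusted p up to 0.200). With thinned footprints neither was called (adjusted p 0.0578 and 0.125).

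RPL22L1 thus made up a larger share of the pair's RNA and not of its footprints in SH3. Its footprint share was 11.7%, 16.8% and 11.1% in SC, 10.3%, 11.5% and 16.3% in SH2 and 9.06%, 7.39% and 7.87% in SH3, where it was below both other groups. The footprint ratio changed by -0.76 in SH3 (95% interval -1.48 to -0.04), which was not called (limma adjusted p = 0.180, 11.6% of genes called), and by -0.06 in SH2 (-0.79 to 0.66, 29% of genes called). Translational efficiency of RPL22 had values of 0.11 in SH2 (SE 0.27) and 0.73 in SH3 (SE 0.27), and that of RPL22L1 of -0.08 (SE 0.27) and -0.70 (SE 0.28), none called by edgeR (adjusted p 0.233 to 0.921). Relative to RPL22, translational efficiency of RPL22L1 fell by 1.42 in SH3 (95% interval -2.14 to -0.70, limma adjusted p = 0.0380), where 4.55% of genes were called. The median gene moved by -0.78 relative to RPL22 there. The call of RPL22L1 was lost without SC replicate 2 or 3 or SH3 replicate 1 or 2, with adjusted p from 0.133 to 0.273. In SH2 the value was -0.17 (-0.89 to 0.55, 0.0319% of genes called). The hairpins differed by 1.25 (0.53 to 1.97), which was not called (limma adjusted p = 0.146, 0% of genes called).

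RPL36A and RPL36AL fell together in RNA. RPL36A RNA was at 252, 268 and 289.6 CPM in SC, at 169, 175 and 162 in SH2 and at 176, 212 and 179.5 in SH3. RPL36AL RNA was at 363, 308 and 335 CPM in SC, at 225, 206 and 181 in SH2 and at 265, 262 and 228 in SH3. Each hairpin group lay below SC for both genes. RPL36A changed by -0.68 and -0.51 (SE 0.10 each, adjusted p = 4.30e-05 and 0.000602 by edgeR), and RPL36AL by -0.72 and -0.42 (SE 0.11 each, adjusted p = 5.62e-05 and 0.00466 by edgeR). RPL36AL was lower in SH2 than in SH3 by 0.30 (adjusted p = 0.0368 by edgeR), a call lost in 4 of 6 fits that left out a library (adjusted p up to 0.168). The RNA ratio of the pair changed by -0.04 in SH2 (95% interval -0.32 to 0.23) and by 0.10 in SH3 (-0.18 to 0.37), neither called, where 73.8% and 68.8% of genes were.

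The 2 genes differed widely in footprints. RPL36AL footprints were at 525, 456 and 495 CPM in SC, at 308, 271 and 248 in SH2 and at 351, 328 and 339.7 in SH3, with both hairpin groups below SC. They changed by -0.84 (SE 0.13, adjusted p = 9.17e-05 by edgeR) and -0.54 (SE 0.13, adjusted p = 0.00398 by edgeR), close to the change of its RNA. RPL36A footprints were at 17.2, 5.06 and 10.8 CPM in SC, at 7.41, 3.96 and 3.56 in SH2 and at 2.93, 2.74 and 5.26 in SH3. This is 5 to 106 counts a library, against 4304 to 7362 counts in RNA. The footprint change of RPL36A was -1.27 in SH2 (SE 0.39, adjusted p = 0.0156 by edgeR) and -1.65 in SH3 (SE 0.44, adjusted p = 0.00808 by edgeR), although the hairpin groups overlapped SC. Without SC replicate 1, the highest library, these were -0.81 (adjusted p = 0.109 by edgeR) and -1.18. The SH2 call was also lost without SH2 replicate 2 or 3 (adjusted p up to 0.0753) and with all footprint libraries thinned to the smallest total (-0.85, adjusted p = 0.167 by edgeR), and the SH3 call without SH3 replicate 2 (adjusted p = 0.0550).

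RPL36AL accordingly held 52.8% to 60.0% of the pair's RNA counts in all libraries and 96.8% to 99.2% of its footprint counts. The footprint ratio changed by 0.20 in SH2 (95% interval -1.03 to 1.42, 20.8% of genes called) and by 0.90 in SH3 (-0.33 to 2.12, 54.4% called). Relative translational efficiency changed by 0.24 (-0.94 to 1.43) and by 0.80 (-0.39 to 1.98), and no gene at all was called against RPL36A there (0% under either hairpin). Without SC replicate 2 the SH3 ratio was called in footprints (1.30, limma adjusted p = 0.0257) and in translational efficiency (1.26, limma adjusted p = 0.0486). These wide intervals go with the low RPL36A footprint counts.

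The ratio of mean footprint CPM to mean RNA CPM in SC places RPL36A apart from the other members. It was 0.0409 for RPL36A and 1.47 for RPL36AL, against a median of 0.888 over 10335 genes. Only 7 of these genes had a lower ratio than RPL36A in SC, 4 in SH2 and 0 in SH3. All 73 other cytosolic ribosomal proteins with a ratio were higher in SC, the lowest of them being RPL41 at 0.0824, and their median was 0.813. The other members ranged from 0.381 for RPL26 to 1.26 for RPL22, with RPS27 at 0.565, RPS27L at 0.700, RPL26L1 at 0.775, RPL39L at 0.794, RPL39 at 1.05 and RPL22L1 at 1.13. The ratio of a gene depends on its untranslated length as well as on its translation, since footprints cover the coding part alone. It also depends on how reads that match several places were counted, which is not given in the sources used here. Near-identical stretches with the other pair member or with processed pseudogenes could therefore move counts between rows, for RPL36A and for the other members, and this was not tested. The table also holds a row for the readthrough transcript RPL36A-HNRNPH2, with 6 to 10 RNA counts and 0 to 1 footprint counts a library. Of 46 genes that are the upstream part of such a readthrough row and have a ratio, RPL36A had the lowest and MSANTD3 the next at 0.162, with a median of 0.924.

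**Figure D3:**
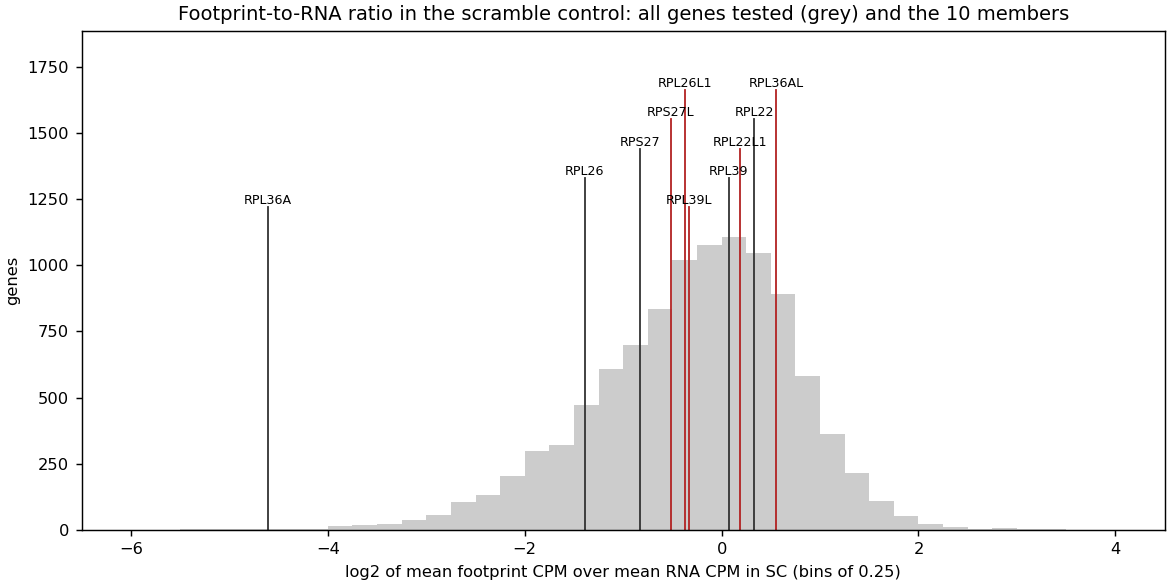
Histogram of the log2 ratio of mean footprint CPM to mean RNA CPM in SC over all genes tested in both fits, in bins of 0.25, with lines for the 10 members (dark for canonical members, red for paralogs; line heights only separate the names). RPL36A, with a ratio of 0.0409, lies far to the left of the other members, which range from 0.381 to 1.47.

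RPL39 and RPL39L were lower in both library kinds under both hairpins. RPL39 RNA was at 508, 463 and 520.0 CPM in SC, at 230.2, 274 and 246 in SH2 and at 261, 289 and 275 in SH3. RPL39L RNA was at 12.3, 10.8 and 13.0 CPM in SC, at 5.37, 5.27 and 4.94 in SH2 and at 8.56, 7.72 and 6.55 in SH3. No hairpin library reached an SC value for either gene. RPL39 changed by -0.99 (SE 0.10, adjusted p = 1.25e-06 by edgeR) and by -0.85 (SE 0.10, adjusted p = 8.22e-06 by edgeR). RPL39L changed by -1.21 (SE 0.15, adjusted p = 8.35e-06 by edgeR) and by -0.66 (SE 0.14, adjusted p = 0.00145 by edgeR), and was lower in SH2 than in SH3 by 0.55 (SE 0.15, adjusted p = 0.00935 by edgeR). That difference lost its call without SH3 replicate 1 (-0.43, adjusted p = 0.0577).

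Footprints of RPL39 were at 531, 571 and 465 CPM in SC, at 354, 223 and 252 in SH2 and at 436, 281 and 308 in SH3. Those of RPL39L were at 9.58, 8.43 and 10.7 CPM in SC, at 4.44, 2.10 and 1.94 in SH2 and at 4.10, 2.40 and 3.16 in SH3. Again all hairpin values were below those of SC, but the RPL39L values rest on 20 to 60 counts a library in SC and 6 to 12 in the hairpin groups. RPL39 footprints changed by -0.92 (SE 0.19, adjusted p = 0.000963 by edgeR) and -0.62 (SE 0.19, adjusted p = 0.0170 by edgeR), the latter lost without SH3 replicate 2 or 3 (adjusted p up to 0.104). RPL39L footprints changed by -1.82 (SE 0.33, adjusted p = 0.000434 by edgeR) and -1.63 (SE 0.35, adjusted p = 0.00190 by edgeR), and these calls held without any single library. RPL39L made up 2.29% to 2.44% of the pair's RNA counts in SC, 1.89% to 2.28% in SH2 and 2.32% to 3.17% in SH3. Of the footprint counts it made up 1.45% to 2.24%, 0.764% to 1.24% and 0.846% to 1.01%, so both hairpin groups lay below SC. The footprint ratio changed by -0.85 in SH2 (95% interval -1.80 to 0.09) and by -0.89 in SH3 (-1.84 to 0.05), neither called (limma adjusted p 0.109 and 0.118, 63.9% and 42.9% of genes called). The RNA ratio changed by -0.21 in SH2 (-0.57 to 0.14, 83.6% of genes called) and by 0.19 in SH3 (-0.17 to 0.54, 82.2% called). Relative translational efficiency changed by -0.64 (-1.49 to 0.21, 0.0239% of genes called) and by -1.08 (-1.93 to -0.23), the latter with a limma adjusted p of 0.538, where 0.00798% of genes were called.

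**Figure D4:**
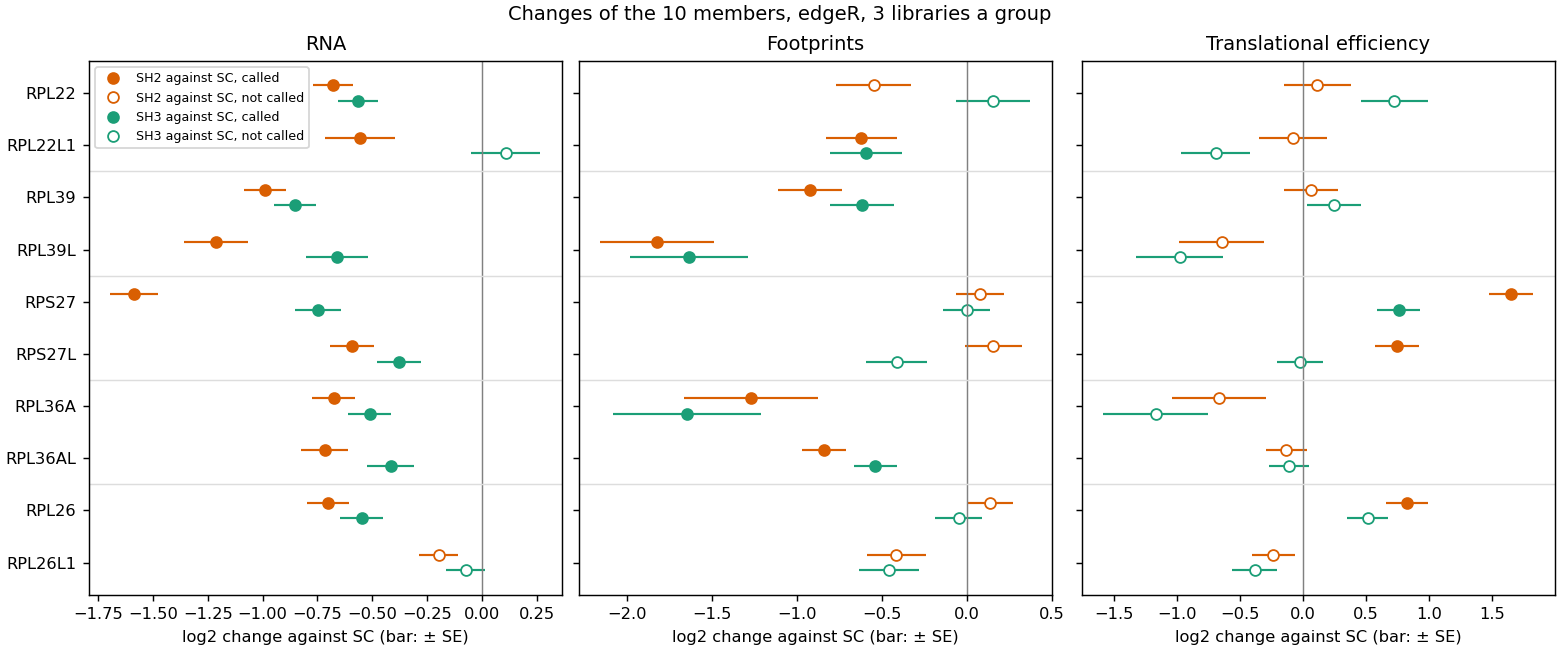
Log2 changes of the 10 members against SC in RNA, footprints and translational efficiency. Dots are edgeR estimates from 3 libraries a group, bars are ± SE, and filled dots are called (adjusted p under 0.05). RNA changes are below 0 for all members but RPL22L1 in SH3, while the footprint changes of RPS27 and RPL26 lie near 0.

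The other 74 cytosolic ribosomal proteins give the setting for the pairs. Their RNA was called lower for 70 in SH2 and 68 in SH3 and higher for none. Of all genes tested, 30.4% and 25.2% were called lower. Median log2 changes of the list were -0.61 and -0.57 beside 0.01 and 0.03 over all genes tested. Of the 73 tested in footprints, 9 passed the threshold upward and 17 downward under SH2, against 5 and 15 under SH3. Over all genes, 21% passed upward and 23.2% downward under SH2, against 16.9% and 19% under SH3. The downward counts of the list are near these shares. Its medians were -0.04 and -0.07, beside -0.004 and -0.01 over all genes tested. Translational efficiency was called higher for 33 in SH2 and for 18 in SH3 and lower for none, where 1.44% and 0.375% of all genes were called higher. The list's medians were 0.58 and 0.52 beside -0.02 and -0.04 over all genes tested. By mean translational efficiency change over both hairpins, RPS10 (1.64 and 1.12) and RPL23A (1.14 and 1.06), proteins of the small and the large subunit, were the highest of the list. FAU (-0.63 and -0.24), which encodes RPS30 as a ubiquitin-like fusion, was among the 2 lowest, with neither translational efficiency value called. Its footprints were called lower in SH2 (-0.52, adjusted p = 0.0193 by edgeR). Among the members, RPS27 and RPL26 followed the list's pattern of lower RNA with little footprint change. RPL36A, RPL36AL, RPL39 and RPL39L were called lower in RNA and in footprints under both hairpins, RPL36A and RPL39L on few footprint counts. RPS27L and RPL22 were called lower in RNA alone in the unblocked fits of all 3 groups. Their footprint changes in SH2 and SH3 were 0.16 and -0.41 for RPS27L and -0.55 and 0.16 for RPL22. Several alternative fits given above called RPL22 footprints lower in SH2. RPS27L footprints were called lower in SH3 with thinning (adjusted p = 0.0265 by edgeR) and without SC replicate 1 (adjusted p = 0.0416 by edgeR).

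**Figure D5:**
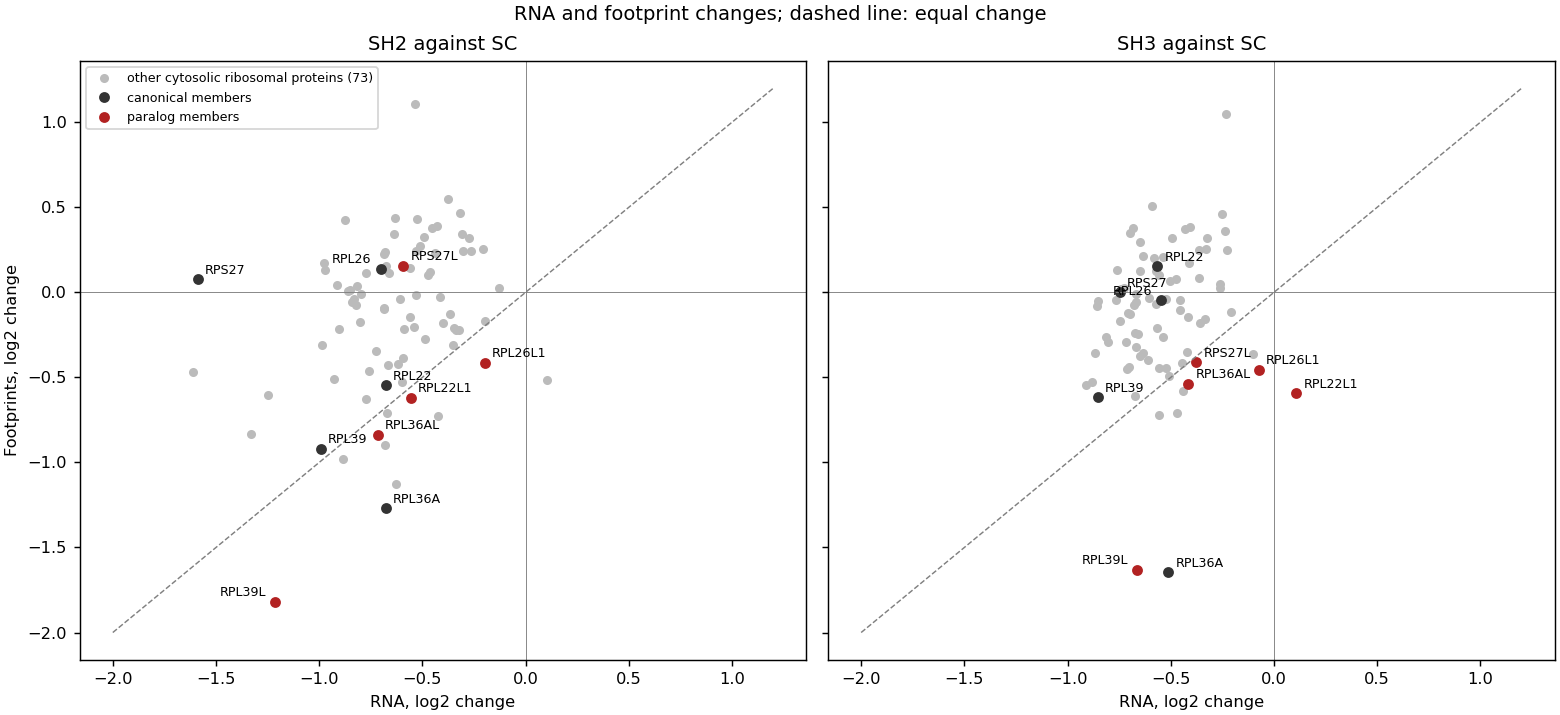
Log2 change in footprints against log2 change in RNA for SH2 and SH3 against SC, with 73 other cytosolic ribosomal proteins in grey, canonical members in black and paralogs in red; the dashed line marks equal change. RPS27 lies far above the line in SH2 (-1.59 in RNA and 0.08 in footprints). RPL36A, RPL36AL, RPL39L, RPL26L1 and RPL22L1 lie below it under both hairpins, with RPL36AL, and RPL22L1 in SH2, close to it.

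The genes whose 4 log2 changes (RNA and footprints, SH2 and SH3 against SC) were most like those of a member were searched among 10334 others by root-mean-square distance on the log2 scale. RPL26 was most like RPL5 (0.0381) and RPS27A (0.0715), and RPL22 most like RPL17 (0.0506) and DNM1 (0.0758), so both had another ribosomal protein nearest to them. None of the nearest genes of the remaining members was a ribosomal protein. UBR7 (0.0736) was among the 2 genes nearest to RPL39, and RPL36A was nearest to PXMP2 (0.120) and CHPT1 (0.121). RPS27 had no close neighbour, with PSMA1 at 0.212 and SLC36A4 at 0.262. Of the paralogs, RPL36AL was nearest to SMARCA1 (0.0331) and MBIP (0.0558), and RPL26L1 to FKBP9 (0.0458) and GCLC (0.0474). RPS27L was nearest to SNRPC (0.0679) and MMAB (0.109), and RPL22L1 to SLC7A6 (0.0780) and RNF138 (0.0781). RPL39L was nearest to TTL (0.126) and GK5 (0.144). The distances rest on changes that share the SC libraries.

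Of 3 further ribosomal protein paralogs, RPL10L had 0 counts and RPL3L 0 to 1 in any RNA library, and RPL10L had 1 to 5 counts in each footprint library. RPL7L1, which is known as a factor of ribosome assembly, had 2917 to 6956 RNA counts, and its RNA changed by -1.02 in SH2 (SE 0.12, adjusted p = 5.13e-06 by edgeR) and by -0.09 in SH3 (SE 0.11, adjusted p = 0.543 by edgeR).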

How the data were processed

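Cytoplasmic RNA and ribosome footprints were read from 1 deposited table of 17017 gene symbols. It holds raw counts per gene and library as the authors deposited them. Its normalized signal columns, log2 fold changes and p-values come from DESeq2, per the file headers, and were not used for any result above. Bowtie 1.2.2 and DESeq2 are named in the submitters' processing notes, without their roles. The counting tool, annotation, genome build and treatment of reads that match several places are not given in the sources used here.

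The counts were tested in edgeR 4.0.16 (R 4.3.3) with filterByExpr, TMM factors and the quasi-likelihood test, two-sided. There was 1 fit of the 9 RNA libraries, 1 of the 9 footprint libraries and 1 of all 18 for translational efficiency (an interaction contrast). P-values were adjusted by Benjamini-Hochberg over all genes tested, and SE is the absolute log2 change over the square root of F. Pair ratios used a pseudocount of 0.5 and limma 3.58.1 (trended eBayes), adjusted over all genes set against the same canonical member. A shared error of that member moves all such genes, so the interval of each ratio is given beside its adjusted p. Each kind of fit was run on simulated counts with 1 fixed spread for all genes and both library kinds, and no pairing. These libraries need not have that spread, so the simulation does not measure the rate of false calls here. Depth was 23469830 to 27629488 counts in RNA and 1662705 to 6098648 in footprints, so low footprint counts limit RPL39L and RPL36A. Replicates of a group differed by more than counting noise (chi-square per degree of freedom 3.38 to 56.3).

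All 10 members were named, with FBL, the 2 nearest genes of each member and the 2 highest and 2 lowest other ribosomal proteins by translational efficiency. Some genes and a gene list that this rule would name are not reported here. The members and lists were chosen with earlier results of these data known. Same-numbered SH2 and SC libraries deviated together from their group means (correlations 0.358, 0.295 and 0.302 in RNA and 0.286, 0.297 and 0.249 in footprints). The fits behind the calls above held no block, except where a block is named. In an alternative fit of RNA, footprints and pair ratios, the replicate number was taken to pair these libraries. Start sites are RefSeq's on GRCh38.p14. No protein or coding lengths were at hand, so levels of different genes were not compared per length. Alternatives were another scaling, no filter, DESeq2 1.42.0, replicate blocks, only the treatments compared, thinned footprints, another pseudocount, no trend, the paralog as reference, a minimum fold change and leaving out each replicate.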

Additional observations from a re-analysis of the deposited data

Results flagged for a closer look

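The hairpins differed from each other, by a direct test of SH2 against SH3, in 6 changes of single members and in 2 pair ratios. In RNA, SH2 was below SH3 on the log2 scale by -0.841 for RPS27, by -0.664 for RPL22L1, by -0.55 for RPL39L and by -0.302 for RPL36AL. In footprints the difference was -0.702 for RPL22 and 0.569 for RPS27L. Relative to its partner in RNA, RPL22L1 differed by -0.557 and RPS27L by 0.628. Of these, the differences in RPS27 and RPL22L1 RNA and both pair ratios stayed called in each of the 6 fits that left out a library. FBL RNA itself did not differ past the threshold between the hairpins (log2 difference 0.72, SE 0.47, adjusted p = 0.242 by edgeR), with 1.26 to 11.2 CPM in SH2 and 2.95 to 4.15 in SH3. Whether the hairpin differences follow the remaining FBL was not tested.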

How the results depend on the processing

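Of 1044 alternative values for single members, 947 kept their direction and side of the threshold, 47 lost the call, 22 gained it and 28 changed sign. Of 570 for pair ratios the numbers were 513, 26, 10 and 21. No called value changed sign, and the cause of the changes was not tested. With footprints thinned to the smallest total, values with no call in either fit changed sign: RPL39L translational efficiency in SH2 (0.074), RPS27 footprints in SH3 (-0.00924), RPS27L footprints in SH2 (-0.11), and in SH2 the pair ratios of RPL22L1 in footprints (0.050), RPL39L in translational efficiency (0.011), RPS27L in footprints (-0.18) and RPL36AL in footprints (-0.22) and translational efficiency (-0.17). The RPL26L1 footprint ratio in SH2 lost its call at a pseudocount of 3 (-0.53), without the trend, without the filter and with only the treatments compared (-0.54 each) and with thinning (-0.43). The RPL22L1 translational efficiency ratio in SH3 lost its call without the trend (-1.42), and that of RPS27L with the paralog as reference (-0.78). Among single members, thinning also called footprints of RPS27L in SH3 (-0.61) and of RPL22 in SH2, and ended the RPS27L footprint call between the hairpins (0.50), and DESeq2 called RPL26 translational efficiency in SH3 (0.51). Calls were gained for the RPL22L1 footprint ratio in SH3 with the paralog as reference (-0.76), for the RPL39L ratio between hairpins in RNA with the paralog as reference (-0.40), and for the RPL39L footprint ratio in SH2 (-0.85) and SH3 (-0.89) without the trend and, in SH3, with the paralog as reference (-0.89).

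The replicate block changed 2 calls of SH2 against SC, both given in the report, and no other call of RNA, footprints or pair ratios in that comparison. For the other comparisons same-numbered libraries deviated together in part only. Correlations of SH3 with SC were 0.230, -0.083 and 0.229 in RNA and 0.016, -0.059 and 0.258 in footprints. Those of SH2 with SH3 were 0.435, 0.038 and 0.236 in RNA and -0.009, -0.117 and 0.314 in footprints. In these comparisons the block called the RPL22L1 footprint ratio in SH3 (-0.76) and between hairpins (0.69), and RPL26L1 footprints in SH3. RNA and footprint libraries of the same number deviated together in SH3 (correlations 0.421, 0.292 and 0.208) and for replicate 3 of SC and SH2 (0.264 and 0.503), but not for replicates 1 and 2 of SC and SH2 (-0.490 to -0.304). In SC and SH2, RNA replicate 1 went with footprint replicate 2 (0.576 and 0.563) and RNA replicate 2 with footprint replicate 1 (0.458 and 0.497), a hint from the data and not from the design. A further block took RNA and footprint libraries of the same number as 1 lysate, which the labels do not state. With it, 191, 23 and 0 genes were called in translational efficiency in SH2, in SH3 and between the hairpins. It called 0 members in SH3: RPS27 lost its call there, and RPS27L in SH2.

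Requiring an absolute log2 change of 1 left 2336, 1623 and 955 genes in RNA (members 2, 0 and 0), 1798, 1356 and 874 in footprints (members 2, 2 and 0), and 152 and 35 in translational efficiency (members 1 and 0) (in the order SH2, SH3 and SH2 against SH3). In translational efficiency DESeq2 called 930, 383 and 254 genes (2 members in SH3 and 2 between the hairpins), the fit of only the treatments compared 184, 46 and 36 (0 members in SH3 and 1 between the hairpins), thinning 238 in SH2, and no filter 35 genes and 1 member between the hairpins. Thinned footprints called 3 members in SH2 and 1 between the hairpins.

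Leaving out a replicate in turn gave 110 to 555 genes in translational efficiency in SH2, 10 to 244 in SH3 and 0 to 1 between the hairpins, and 1541 to 2104 in footprints between the hairpins. Members called were 2 to 4 in RNA between the hairpins, 3 to 7, 2 to 6 and 0 to 1 in footprints in SH2, SH3 and between them, and 1 to 3 and 0 to 2 in translational efficiency in SH2 and SH3. Calls were gained for RPL22 footprints in SH2, RPL22 translational efficiency in SH3, RPL26L1 RNA in SH2 and footprints under both hairpins, RPS27L RNA between the hairpins and RPS27L footprints and their ratio in SH3. Among single members with no call, the sign changed within these ranges: RPL22 footprints in SH3 (-0.0086 to 0.44) and translational efficiency in SH2 (-0.10 to 0.43), RPL22L1 RNA in SH3 (-0.081 to 0.18) and translational efficiency in SH2 (-0.32 to 0.23), RPL26 footprints in SH3 (-0.12 to 0.072), RPL39 translational efficiency in SH2 (-0.21 to 0.26), RPS27 footprints in SH3 (-0.055 to 0.15) and RPS27L translational efficiency in SH3 (-0.13 to 0.076). Between the hairpins it changed for footprints of RPL22L1 (-0.21 to 0.11), RPL26L1 (-0.094 to 0.14) and RPL39L (-0.60 to 0.017), and for translational efficiency of RPL36AL (-0.064 to 0.048), RPL39 (-0.46 to 0.047) and RPL39L (-0.049 to 0.54).

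For pair ratios the ranges were, for RPL22L1, -0.031 to 0.22 in RNA, -0.29 to 0.15 in footprints and -0.42 to 0.036 in translational efficiency in SH2, and -1.59 to -1.24 in translational efficiency in SH3. For RPL26L1 they were -0.60 to -0.48 in footprints in SH2, -0.98 to -0.73 in translational efficiency in SH3 and -0.029 to 0.085 in RNA between the hairpins. For RPL36AL they were -0.12 to 0.061 in RNA, -0.15 to 0.60 in footprints and -0.21 to 0.70 in translational efficiency in SH2, and 0.55 to 1.30 in footprints and 0.34 to 1.26 in translational efficiency in SH3. For RPL39L the footprint ratio between the hairpins ranged from -0.13 to 0.19. For RPS27L they were 0.33 to 0.40 in RNA in SH3, -0.17 to 0.23 in footprints in SH2, -0.65 to -0.25 in footprints and -0.99 to -0.64 in translational efficiency in SH3, and -0.30 to 0.027 in translational efficiency between the hairpins.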

Other observations

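The deposited table also holds the authors' own comparison columns under the name RD. In the authors' deposited table, the 3 RD columns of SH2 and those of SH3 were identical in all 17017 genes. Over 12531 genes, the deposited RD log2 values differed from the translational efficiency changes computed here by a median of 0.00474 for SH3 and of 0.261 for SH2. For RPS27L, the authors' deposited table gives an RD log2 value of -0.016 under either hairpin, while the changes computed here were 0.75 in SH2 and -0.02 in SH3. A deposited DESeq2 adjusted p of 0.000222 stands beside that RD value under either hairpin, and how they relate was not tested. RPL7L1 footprints changed by -0.94 in SH2 (SE 0.17, adjusted p = 0.000347 by edgeR) and by 0.27 in SH3 (SE 0.16, adjusted p = 0.213 by edgeR), so SH2 stood below SH3 as it did in RNA.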
